A study of Mus musculus with 10 samples.

Results

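Transcripts of 10 genes of the neuronal cytoskeleton and growth cone were compared between sacral neural crest progenitors (NCPs) and total embryo of the mouse. The genes were chosen by symbol in the platform annotation and are Nefl, Nefm, Nefh, Ina and Prph of the neuronal intermediate filaments, Tubb3, Mapt, Dcx and Stmn2 of the microtubules and their binding proteins, and Gap43 of the growth cone membrane. All 10 were measured, among 19937 genes with a probe set of their own, and each is represented by the probe set with the highest mean over the 10 arrays. The NCP group holds 3 arrays of Sox10-H2BVenus+ cells collected by fluorescence-activated sorting from the fetal lower urogenital tract at embryonic day 13. The comparison group holds 7 arrays of total embryo RNA, for which the labels give neither stage nor strain. In the sorted cells a Sox10-driven transgene marks chromatin with the fluorescent H2BVenus protein, which cells that have begun to differentiate into neurons can carry for a time after Sox10 is switched off. Each NCP sample was a pool of fetuses. The methods of the study describe the source as dissociated pelvic ganglia and the labels as sub-dissected lower urogenital tract.

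Neurons hold their shape and extend their axons with intermediate filaments, microtubules and actin. Neurofilaments are assembled from the light, medium and heavy chains encoded by Nefl, Nefm and Nefh with alpha-internexin (Ina) or, in neurons that project outside the brain and spinal cord, peripherin (Prph). Class III beta-tubulin (Tubb3) is a widely used early neuronal marker, tau (Mapt) and doublecortin (Dcx) bind and stabilise microtubules, stathmin 2 (Stmn2) binds tubulin and acts in the growing axon, and GAP-43 (Gap43) lies under the growth cone membrane. Most of these transcripts appear as a progenitor becomes a postmitotic neuron, so their level in a sorted progenitor pool reads both how many cells have begun that step and how far. In such bulk samples fewer cells of a type and less RNA per cell cannot be told apart.

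Values are log2 levels after robust Multi-Array Average (RMA), on which a difference of 1 is 2-fold. The NCP arrays held a narrower range of values than the total embryo arrays. The SD over probe sets was 0.97 to 1.13 on the 3 NCP arrays and 1.78 to 1.91 on the 7 total embryo arrays. The 1194 olfactory and vomeronasal receptor genes, which embryonic tissue should hardly express, were taken as a floor. The median of 7 housekeeping genes was 3.46 above their median on NCP array 1, 0.72 on array 2 and 4.41 on array 3, against 6.69 or more on every total embryo array. The difference between NCP and total embryo followed the level of a gene. In the 10% of genes with the lowest total embryo level its median was 1.86, and in the highest 10% it was −2.24. Each member is therefore given with 2 values. The first is the difference as deposited. The second is the level-adjusted difference, in which the trend of each array on total embryo level was subtracted, so that 0 stands for the usual difference of a gene of that level. It is a relative measure and not an amount of RNA. The sample titles end in dates, which were read here as hybridization days. By these dates all 3 NCP arrays share a day with total embryo array 1, and the other total embryo arrays fall on 6 further days.

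**Figure D1:**
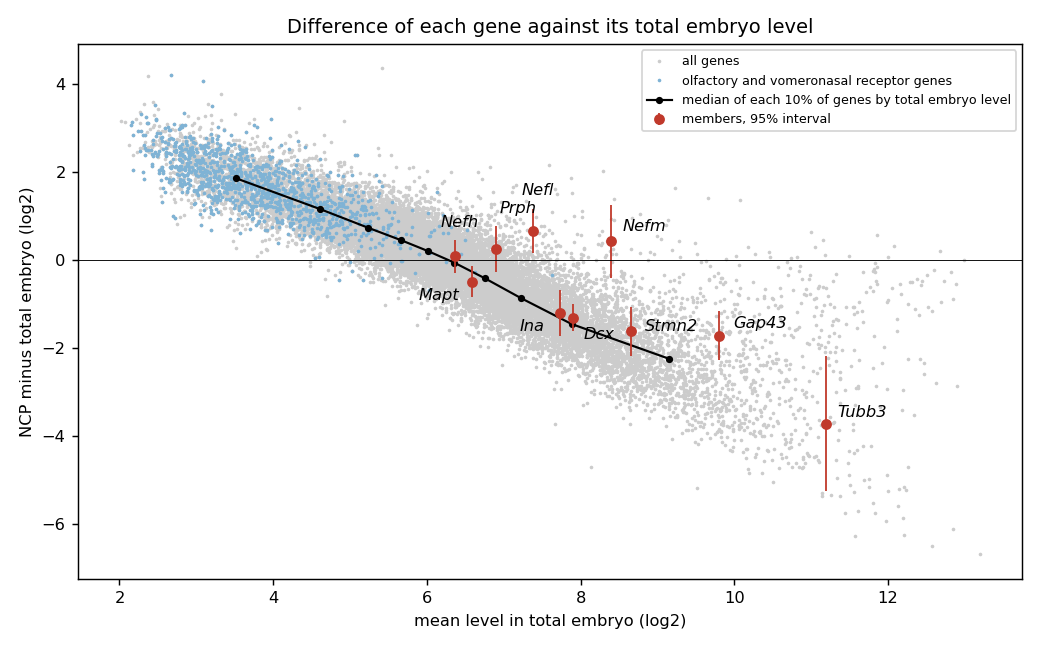
Difference between NCP and total embryo (log2, y axis) against the mean total embryo level (log2, x axis) for 19937 genes in grey, receptor genes in blue, the median of each 10% of genes by level in black and the 10 members in red with 95% intervals. The median falls from 1.86 to −2.24 with rising level, Nefl and Nefm lie well above it, and Tubb3 is at the far right, with a difference of −3.72.

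As deposited, Nefl was higher in NCPs, Ina, Tubb3, Mapt, Dcx, Stmn2 and Gap43 were lower, and Nefm, Nefh and Prph did not pass the test. These are 1 higher and 6 lower of 10 by limma at an adjusted p of 0.05, where 39.6% of the 28192 probe sets tested were higher and 27.5% lower. The median difference of the members was −0.84, against 0.08 over all genes. The arrays of the groups did not overlap for the same 6 lower members, with all NCP arrays below all total embryo arrays, and 21.5% of probe sets showed that separation. No member had all NCP arrays above, which 31.8% of probe sets had. By limma 1 of 10 was higher at an unadjusted p under 0.05, as were 7246 of all 19937 genes. With the isolate as a random block Nefl and Mapt no longer passed.

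After level adjustment Nefl, Nefm, Prph and Gap43 were higher and no member was lower by limma. The count of 4 of 10 higher stands beside 10.3% of all probe sets, and the count of 0 lower beside 8.29%. At an unadjusted p under 0.05, 1 member, Tubb3, was lower, as were 3373 of all 19937 genes. The members' median was 0.22, against −0.03 over all genes. Nefl, Nefm and Gap43 had all NCP arrays above all total embryo arrays on this scale, as did 9.58% of probe sets, and no member had all below, as did 7.63%. By the title codes the 7 total embryo arrays are repeated arrays of only 2 RNA isolates, so the p-values measure in part the spread between arrays. A title code that differs by a missing zero was read as the same isolate. With the isolate as a random block 2 members, Nefl and Nefm, passed after level adjustment, beside 2.32% of probe sets. With only the 3 total embryo arrays of the NCP label series no member was higher by limma, beside 1.16% of probe sets, and the level-adjusted differences were 1.61 for Nefl (limma adjusted p = 0.0577) and 2.16 for Nefm (limma adjusted p = 0.0703). With arrays averaged per isolate, which leaves 3 NCP samples against 2, none was higher either, beside 0.114% of probe sets.

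**Figure D2:**
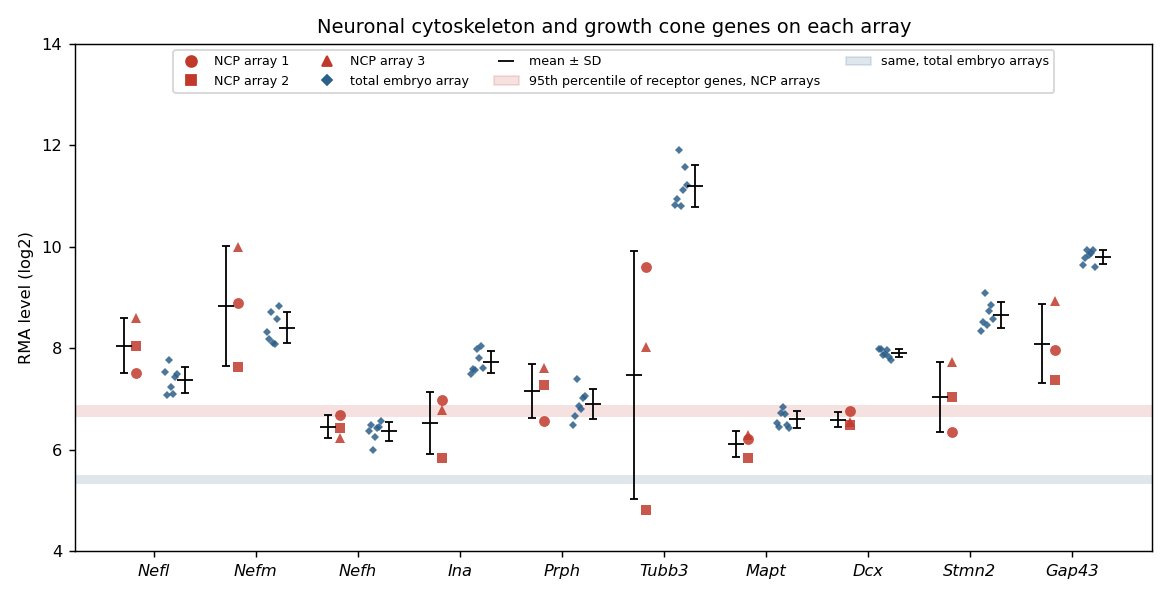
RMA level (log2, y axis) of each member on the 3 NCP arrays (red, 1 symbol per array) and the 7 total embryo arrays (blue), with the mean ± SD of each group in black and, as bands, the range over arrays of the 95th percentile of the receptor genes. NCP arrays of Nefl, Nefm and Gap43 all lie above their band, and Tubb3 spans 4.81 to 9.60 in NCPs.

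**Figure D3:**
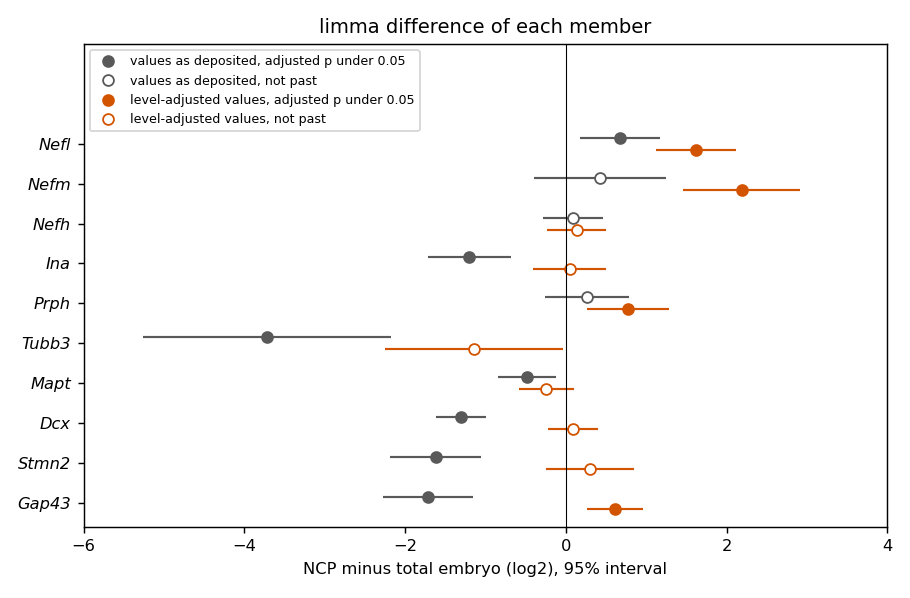
limma difference between NCP and total embryo (log2, x axis) with its 95% interval for each member, as deposited in grey and level-adjusted in orange, with filled points where the adjusted p is under 0.05. The 6 members lower as deposited move to the right after level adjustment, where Nefl, Nefm, Prph and Gap43 are filled.

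The light and medium neurofilament chains stood furthest above genes of their level. Nefl measured 7.51, 8.04 and 8.59 on NCP arrays 1, 2 and 3, and 7.08 to 7.77 with a median of 7.43 in total embryo. NCP arrays 2 and 3 were above every total embryo array and NCP array 1 lay within their range. Its means were 8.05 ± 0.54 (SD, n = 3) and 7.37 ± 0.25 (SD, n = 7), a difference of 0.67 (SE 0.23, limma adjusted p = 0.0207). The call was lost with the isolate as a random block (0.67, SE 0.38, limma adjusted p = 0.152) and with arrays averaged per isolate (0.68, limma adjusted p = 0.205). Without NCP array 3 the difference was 0.40 and did not pass (limma adjusted p = 0.122). Among the 500 genes nearest to it in total embryo level the median difference was −1.0, and Nefl ranked at percentile 99.6 of them. Its level-adjusted difference was 1.62 (SE 0.23, 95% interval 1.12 to 2.12, limma adjusted p = 6.08e-04).

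Nefm was more variable between NCP arrays, at 8.88, 7.62 and 9.99 against 8.09 to 8.83 with a median of 8.31 in total embryo. NCP array 2 lay below every total embryo array and the other NCP arrays lay above them all. As deposited the difference was 0.43 (SE 0.38, 95% interval −0.39 to 1.25, limma adjusted p = 0.331). Without NCP array 2 it was 1.03 and passed (limma adjusted p = 0.00793), and without NCP array 3 it was −0.15. Genes of similar total embryo level had a median difference of −1.85, and Nefm ranked at percentile 98.8 of them. The level-adjusted difference of 2.19 (SE 0.34, 95% interval 1.46 to 2.92, limma adjusted p = 9.45e-04) was the highest of the 10 members. Nefl and Nefm are neighbouring genes on chromosome 14.

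Against the single total embryo array of the same hybridization day, the level-adjusted difference was 1.59 for Nefl and 2.20 for Nefm. With 1 array in that group neither passed (limma adjusted p = 1.0 for both). As deposited the same-day differences were 0.52 for both genes. Against the receptor gene floor both were at or above percentile 99.1 of the receptor genes on each NCP array. Nefl, Nefm and Gap43 were the 3 members above percentile 95 of the receptor genes on every NCP array, and all 10 members were so on every total embryo array. The heavy chain Nefh, which joins neurofilaments later in maturation, did not share the position of the other chains. It measured 6.69, 6.43 and 6.23 on the NCP arrays and 5.99 to 6.57 with a median of 6.43 in total embryo. The groups overlapped, with a difference of 0.09 (95% interval −0.28 to 0.46, limma adjusted p = 0.658) and a level-adjusted difference of 0.13 (95% interval −0.23 to 0.50, limma adjusted p = 0.623). In NCPs it ranked between percentiles 84.4 and 94.4 of the receptor genes.

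Prph is the intermediate filament of peripheral neurons, and Ina is found more in central neurons. The difference between them was not tested, and the intervals of their level-adjusted differences overlapped. The RefSeq promoter table holds entries for Ina, Prph, Tubb3 and Dcx among the members, and the 100 bases before the transcription start are shown for all 4, of which Prph passed after level adjustment and Ina, Tubb3 and Dcx did not. They lie at chr15:99055074-99055173, chr19:47014581-47014680 and chr8:123411453-123411552 of GRCm38.p6 on the plus strand and, for the first of 2 listed starts of Dcx, at chrX:143933220-143933319 on the minus strand. Capitals mark the letters TATAAA on the gene strand and GGGCGG on either strand (CCGCCC where it lies on the other strand).
Prph: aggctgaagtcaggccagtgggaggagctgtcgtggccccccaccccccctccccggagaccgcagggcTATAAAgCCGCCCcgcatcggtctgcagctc
Ina: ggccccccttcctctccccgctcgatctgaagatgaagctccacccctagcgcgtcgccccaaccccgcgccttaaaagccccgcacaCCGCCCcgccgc
Tubb3: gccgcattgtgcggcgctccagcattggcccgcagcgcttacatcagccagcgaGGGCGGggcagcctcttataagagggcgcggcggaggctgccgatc
Dcx: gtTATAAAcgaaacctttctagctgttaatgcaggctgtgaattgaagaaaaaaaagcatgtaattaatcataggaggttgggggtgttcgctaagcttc
Prph held TATAAA with its first base 31 bases before the start and the other motif 24 bases before it. Dcx held TATAAA as well, 98 bases before the first of its starts and 193 before the other, and no GGGCGG, so that TATAAA was found in a member that passed and in one that did not. Ina and Tubb3 held no TATAAA within 250 bases of the start and held GGGCGG on one strand or the other at 2 places each, the nearest 12 and 46 bases before the start. Over 32851 promoters of 250 bases, 7.59% held TATAAA on the gene strand and 32.7% held GGGCGG on either strand.

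Prph measured 6.57, 7.28 and 7.61 on the NCP arrays and 6.48 to 7.39 with a median of 6.86 in total embryo. Only NCP array 3 lay above all total embryo arrays. The difference was 0.26 as deposited (SE 0.24, limma adjusted p = 0.356) and 0.77 after level adjustment (SE 0.24, 95% interval 0.26 to 1.28, limma adjusted p = 0.0384). It ranked at percentile 94.4 of the 500 genes of similar level. This is the least settled of the 4 calls. Without NCP array 2 it was 0.67 (limma adjusted p = 0.0858), without NCP array 3 it was 0.56 (limma adjusted p = 0.121), and without any one of total embryo arrays 1, 2, 4, 5, 6 and 7 it also missed the threshold. Within the shared hybridization day it was 0.80.

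Ina measured 6.98, 5.83 and 6.78 on the NCP arrays and 7.50 to 8.04 with a median of 7.62 in total embryo. All NCP arrays were below all total embryo arrays, and the difference was −1.20 (SE 0.24, 95% interval −1.71 to −0.69, limma adjusted p = 6.46e-04). In NCPs Ina ranked between percentiles 59.6 and 96.6 of the receptor genes. Genes of its level had a median difference of −1.29, and the level-adjusted difference was 0.05 (95% interval −0.41 to 0.51, limma adjusted p = 0.894). Ina has a second probe set, which differed by −0.29 as deposited (limma adjusted p = 0.345) and by 0.64 after level adjustment (limma adjusted p = 0.0954). The first probe set passed as deposited and the second did not, and neither passed after level adjustment.

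Among the microtubule genes all 4 members were lower in NCPs as deposited and none passed after level adjustment. Tubb3 had the largest difference and the largest spread of the 10 members. It measured 9.60, 4.81 and 8.03 on NCP arrays 1, 2 and 3, and 10.80 to 11.91 with a median of 11.11 in total embryo. Every NCP array lay below every total embryo array, and the NCP arrays covered 4.80 among themselves. On NCP array 2 Tubb3 lay at percentile 14.3 of the receptor genes, that is within the floor, and on NCP array 1 above all of them. The SD of 2.44 over the NCP arrays was at percentile 99.9 of all genes. The difference was −3.72 (SE 0.71, 95% interval −5.26 to −2.18, limma adjusted p = 5.06e-04), and without NCP array 2 it was −2.38 (SE 0.38, limma adjusted p = 1.94e-04).

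Genes of the total embryo level of Tubb3 also had a strong negative difference, with a median of −2.54, and Tubb3 ranked at percentile 24.6 of them. The level-adjusted difference was −1.14 (SE 0.51, 95% interval −2.24 to −0.03, limma adjusted p = 0.140). It was −0.44 without NCP array 2 (limma adjusted p = 0.528) and −2.04 without NCP array 1, where it passed (limma adjusted p = 0.00160). Set against similar genes on each array alone, Tubb3 was at percentile 67.2 on NCP array 1, 0.4 on array 2 and 29.6 on array 3. The NCP arrays thus placed this neuronal marker on both sides of the genes of its level. Within the shared hybridization day the difference was −3.35 as deposited and −0.96 after level adjustment.

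Stmn2 measured 6.34, 7.04 and 7.72 on the NCP arrays and 8.33 to 9.08 with a median of 8.58 in total embryo. The groups were separate, with a difference of −1.62 (SE 0.26, 95% interval −2.18 to −1.05, limma adjusted p = 1.36e-04). After level adjustment it was 0.30 (95% interval −0.25 to 0.84, limma adjusted p = 0.445). Without NCP array 1, on which Stmn2 was lowest, the level-adjusted difference was 0.67 and passed (limma adjusted p = 0.0339). The rank of Stmn2 among similar genes was percentile 35.4 on NCP array 1 and 82.4 and 80.0 on arrays 2 and 3.

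Dcx, a marker of migrating and newly formed neurons, was close between replicates, at 6.75, 6.49 and 6.54 on the NCP arrays and 7.77 to 7.98 with a median of 7.89 in total embryo. The groups were separate and the difference was −1.30 (SE 0.14, 95% interval −1.61 to −1.0, limma adjusted p = 5.29e-06). Its level-adjusted difference was 0.08 (95% interval −0.23 to 0.40, limma adjusted p = 0.722), and it ranked at percentile 57.4 of genes of its level. The SD of Dcx over the NCP arrays, 0.14, was at percentile 6.98 of all genes. In NCPs Dcx was between percentiles 86.1 and 94.9 of the receptor genes, below percentile 95 on every array, so its level there was not above that background and neither its small SD nor the size of the difference is a measure of its transcript in NCPs. Mapt measured 6.21, 5.83 and 6.29 on the NCP arrays and 6.43 to 6.85 with a median of 6.53 in total embryo. The groups were separate by a narrow gap, with a difference of −0.48 (SE 0.17, limma adjusted p = 0.0214) that without NCP array 2 was −0.34 (limma adjusted p = 0.0849). After level adjustment it was −0.24 (95% interval −0.58 to 0.10, limma adjusted p = 0.312). In NCPs Mapt was between percentiles 59.3 and 87.2 of the receptor genes, so the limit given for Dcx holds for Mapt too.

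Gap43, the growth cone membrane protein, was lower as deposited and higher relative to genes of its level. It measured 7.97, 7.37 and 8.92 on the NCP arrays and 9.61 to 9.94 with a median of 9.84 in total embryo. The groups were separate, with means of 8.09 ± 0.78 (SD, n = 3) and 9.80 ± 0.13 (SD, n = 7) and a difference of −1.71 (SE 0.26, 95% interval −2.28 to −1.15, limma adjusted p = 8.11e-05). The 500 genes of similar level had a median difference of −2.68, and Gap43 ranked at percentile 79.4 of them. The level-adjusted difference was 0.62 (SE 0.16, 95% interval 0.27 to 0.97, limma adjusted p = 0.0194). With the level trend drawn on the mean of both groups in place of total embryo alone, it was −0.0039, so that the direction rests on the axis of the trend. With the isolate as a random block it was 0.63 and did not pass (limma adjusted p = 0.221).

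The members did not rank the NCP arrays alike. NCP array 2 was the lowest for 6 members, Nefm, Ina, Tubb3, Mapt, Dcx and Gap43, array 1 for 3 and array 3 for 1. NCP array 3 was the highest for 6 members and array 1 for 4. Against genes of similar level on each array, Nefl ranked at percentiles 92.8, 99.6 and 99.4 on arrays 1, 2 and 3, and Nefm at 96.4, 93.0 and 99.6. Gap43 held a narrow range of ranks, from percentile 71.2 to 80.4. Nefl was thus high for its level even on array 2, the array with the narrowest range of values and with housekeeping genes 0.72 above the floor. The share of that array's quality in the ranks was not tested.

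**Figure D4:**
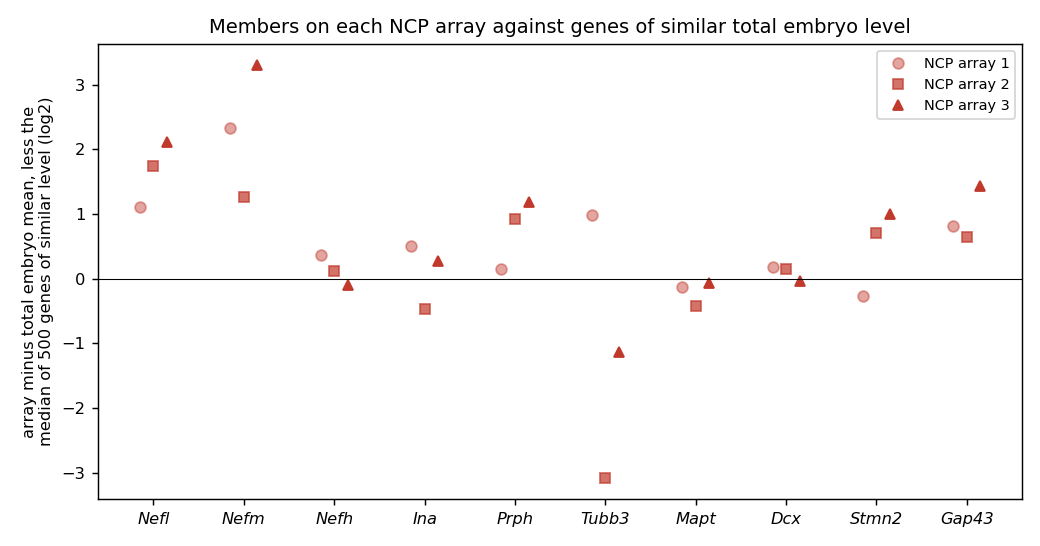
Difference of each NCP array from the total embryo mean, less the median of the 500 genes nearest in total embryo level on the same array (log2, y axis), for each member, with 1 symbol per NCP array. Nefl, Nefm, Prph and Gap43 lie above 0 on all 3 arrays and Tubb3 spans −3.08 to 0.99.

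In total embryo the 2 RNA isolates gave similar levels. Gap43 was the 1 member of 10 whose isolates did not overlap, with 9.90 over 4 arrays of one isolate and 9.67 over 3 arrays of the other, and 11.6% of probe sets showed such a separation. For the other members the isolate means differed by at most 0.35, the value for Tubb3.

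The other genes of the axonal cytoskeleton were taken in 10 lists. On the deposited scale most called genes of these lists were lower in NCPs, as among the members. The counts as deposited stand beside 39.6% of all probe sets higher and 27.5% lower. A lower value was the usual result for bright genes. The median was −1.45 for total embryo levels of 7.53 to 8.36 and −2.24 for those above. The counts after level adjustment stand beside the 10.3% of all probe sets higher and 8.29% lower. Of 15 other tubulin and microtubule-binding genes 1 was higher and 6 lower as deposited, and 5 were higher and 1 lower after level adjustment. Tuba1a and Tubb2a, an alpha- and a beta-tubulin gene, differed by 0.12 and 0.18 as deposited, neither passing. After level adjustment they differed by 2.70 and 2.62 (limma adjusted p = 7.96e-05 and 6.28e-05). Tubb2b, another beta-tubulin gene, was lower as deposited by −1.27 (limma adjusted p = 1.74e-04). After level adjustment Tubb2b had 0.59 and did not pass (limma adjusted p = 0.125). Tuba4a was lower on both scales, by −3.74 and −1.48 (limma adjusted p = 4.01e-07 and 8.33e-04), and Map1b, which binds microtubules in growing axons, had −0.35 after level adjustment (limma adjusted p = 0.332). Tubulin genes are close in sequence, and cross-hybridization between them was not tested.

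Of 12 growth cone and axon membrane genes 2 were higher and 4 lower as deposited, and 3 were higher and 2 lower after level adjustment. Marcksl1 and Marcks, which like GAP-43 bind the inner face of the membrane and are used by many cell types, were among the higher ones. Marcksl1 was higher on both scales, by 1.42 and 3.72 (limma adjusted p = 1.23e-05 and 1.83e-06), though with arrays centred on the receptor genes it had −0.27 (limma adjusted p = 0.184). Marcks differed by −0.77 as deposited, without passing, and by 1.78 after level adjustment (limma adjusted p = 2.07e-04). Nrn1, which promotes neurite growth, was lower on both scales, by −1.61 and −0.91 (limma adjusted p = 1.45e-05 and 0.00739), and Gpm6a had −3.03 and −0.79, the second not passing (limma adjusted p = 0.149). Of 8 growth cone actin regulators 0 were higher as deposited by limma, at the adjusted threshold and at an unadjusted p under 0.05 alike, and 5 were lower, while after level adjustment 5 were higher and 0 were lower by both measures. At the unadjusted threshold 7246 of all 19937 genes were higher as deposited, and 2982 were higher and 3373 lower after level adjustment. Cofilin (Cfl1) and Enah led them at 1.53 and 1.34 (limma adjusted p = 0.00341 and 0.00265). Of 7 housekeeping genes 2 were higher and 2 lower after level adjustment, from Sdha at −1.50 to Ppia at 1.60. Values of this size were thus not particular to growth cone genes.

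Of 5 collapsin response mediators, which carry guidance signals to microtubules, 1 was higher and 3 lower as deposited, and only Crmp1 passed after level adjustment, at −0.85 (limma adjusted p = 0.0302). Of 11 axonal motor genes 1 was higher and 7 lower as deposited. After level adjustment Kif5c passed, at −0.52 (limma adjusted p = 0.0364), and the list had the lowest median of the 10 lists, −0.25. Of 5 spectrins and ankyrins 1 was higher and 4 lower as deposited and Sptbn1 alone passed after adjustment, at −1.19 (limma adjusted p = 0.0292). Of 6 kinase genes that act on neurofilaments or tau 2 were lower as deposited, and Gsk3b passed after adjustment at −0.91 (limma adjusted p = 0.00652). Of 9 neuronal RNA-binding genes 2 were higher and 3 lower as deposited, and Elavl2 passed after adjustment at 0.83 (limma adjusted p = 0.00962).

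Of 8 intermediate filament genes of other cells 1 was higher and 4 lower as deposited. Vimentin (Vim), the filament of mesenchyme and of neural progenitors, differed by −0.97 as deposited (limma adjusted p = 0.0142) and by 1.55 after level adjustment (limma adjusted p = 3.79e-05), and nestin (Nes) was lower after adjustment, at −0.85 (limma adjusted p = 0.0387). Of 6 cytoskeleton genes common to all cells 4 were lower as deposited. After adjustment Tubb6 was higher at 1.46 and Actb and Map4 were lower at −0.66 and −0.52 (limma adjusted p = 0.00668, 0.0427 and 0.0496). A gain over genes of similar level was therefore also measured for cytoskeletal genes that are not neuronal.

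**Figure D5:**
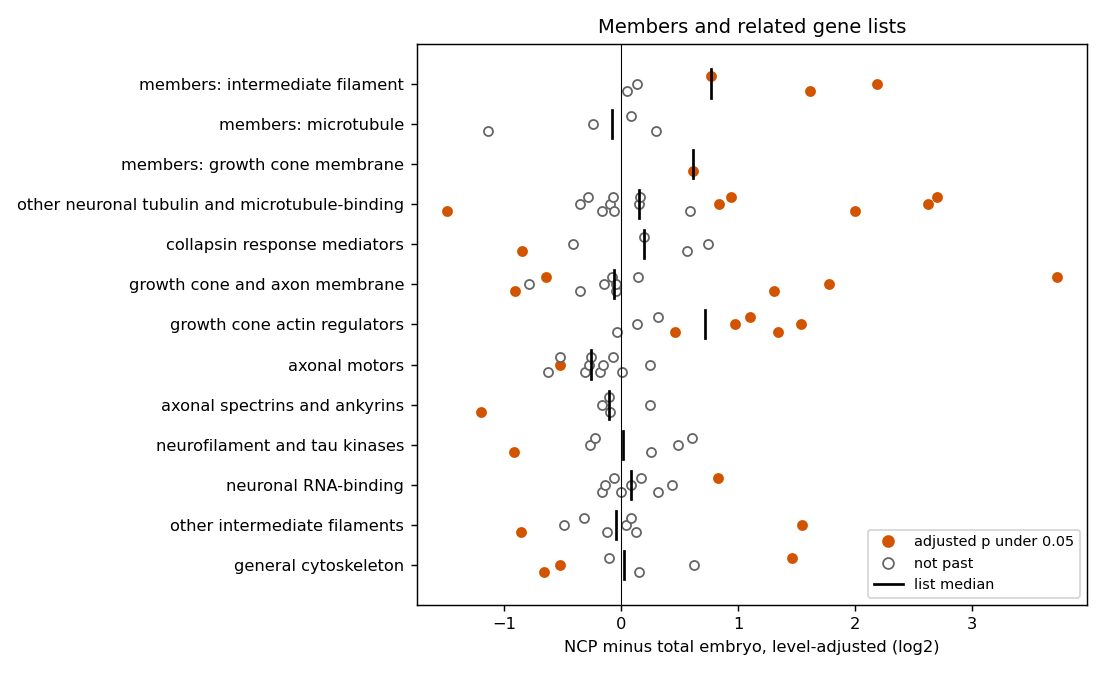
Level-adjusted difference between NCP and total embryo (log2, x axis) of each measured gene in the 3 groups of members and 10 related lists, filled where the limma adjusted p is under 0.05, with the median of each list as a bar. Actin regulators have 5 filled points to the right of 0 and axonal motors 1 to the left.

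Centring the arrays on the receptor genes shifted every difference as deposited, by −1.69 at the median of all probe sets, and no member and no gene of the 10 related lists was then higher by limma, beside 4.77% of probe sets, while all 10 members were lower, beside 77.9% of probe sets.

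Marker genes were read beside these values. The marker counts as deposited stand beside 39.6% of all probe sets higher and 27.5% lower, and those after adjustment beside 10.3% and 8.29%. Genes of low total embryo level had a positive median difference as deposited. It was 0.74 for levels of 4.96 to 5.47 and 0.46 for levels of 5.47 to 5.84. Sox10, the gene that drives the reporter, was higher in NCPs by 1.0 (limma adjusted p = 2.78e-04) and after level adjustment by 1.22 (limma adjusted p = 4.73e-04). Of 7 crest and glial markers 3 were higher and 3 lower as deposited, and 2 and 2 after adjustment. The 2 higher were Sox10 and Foxd3 (0.78), and the 2 lower were Fabp7 (−1.74) and Erbb3 (−0.95). In NCPs Erbb3 was between percentiles 29.1 and 59.6 of the receptor genes, so the limit given for Dcx holds for it. The crest and glial list had a mean level of 6.11 to 6.97 over NCP arrays and 6.64 to 6.84 over total embryo arrays. Of 7 autonomic markers 5 were higher and 0 lower as deposited, with mean levels of 6.25 to 6.96 and 5.63 to 5.99. After adjustment Isl1 (1.13) and Gata3 (0.54) were higher. No autonomic marker was lower at an unadjusted p under 0.05 on either scale, where 6472 of all 19937 genes were as deposited and 3373 after adjustment. Of 11 brain and spinal cord markers 4 were higher and 2 lower as deposited, with mean levels of 6.10 to 6.52 and 5.94 to 6.05. After adjustment 2 of them, Emx1 (1.39) and Tbr1 (1.03), were higher and 1, Neurod6 (−0.98), was lower. Neurod6 was between percentiles 6.62 and 71.8 of the receptor genes in NCPs, with the same limit. Of 7 sensory neuron markers 6 were higher and 1 lower as deposited, and Neurog1 alone passed after adjustment, with mean levels of 6.15 to 6.47 and 5.52 to 5.77. All 4 liver markers and all 7 smooth muscle and mesenchyme markers were lower as deposited, and 4 and 4 of them after adjustment. Their mean levels were 5.85 to 6.48 against 11.4 to 12.1 for liver and 5.97 to 6.63 against 8.58 to 9.18 for smooth muscle and mesenchyme. Of 5 melanocyte markers 2 were higher and 1 lower as deposited, and of 4 erythroid markers 3 were higher and 1 lower. After adjustment 1 melanocyte marker, Dct (0.71), was higher and 1, Tyr (−0.68), was lower. Tyr was between percentiles 16.1 and 44.9 of the receptor genes in NCPs. Of the erythroid markers 1, Hba-x, was then higher (0.70, limma adjusted p = 0.0105) and 0 were lower. Total embryo contains brain, spinal cord and sensory ganglia, which express the members too, and the part of this difference in cell types in the members' values was not tested.

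Without NCP array 2, 2 members were higher and 5 lower as deposited, where 39.4% and 26.3% of probe sets were, and 3 were higher and 0 lower after level adjustment, where 13.7% and 12.3% were. The 3 were Nefl at 1.57, Nefm at 2.68 and Gap43 at 0.66 (limma adjusted p = 0.00168, 7.76e-05 and 0.0174). Of the related lists, actin regulators then had 6 of 8 higher after adjustment and 4 of 8 lower as deposited, and tubulin and microtubule-binding genes 6 of 15 higher and 1 lower after adjustment.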

How the data were processed

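Affymetrix mouse Gene ST arrays measured RNA of 3 NCP isolates (1 array each) and 2 total embryo isolates (7 arrays), as read from the title codes. The deposited values are log2 levels made by the authors with RMA in Affymetrix Expression Console 1.1, which arrays being normalized together not given in the sources used here. The labels and methods name different labelling kits. Arrays have no counts, so their number limits precision.

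Control probe sets (6568 of 34760) were left out. The other 28192 (21640 with 1 symbol, 1321 with several, 5231 with none) were fitted with limma 3.58.1 (R 4.3.3; prior of 4.65 degrees of freedom) with Benjamini-Hochberg adjustment over all of them, at 0.05, as deposited and after subtraction of the lowess trend (span 0.3) of each array on total embryo level. RefSeq names matched 21553 symbols. Neighbouring genes were the 500 nearest in total embryo level. The fits were tested on simulated data. From each related list up to 2 genes with the highest and 2 with the lowest level-adjusted difference could be named. Tubb2b was named in addition, after the data were seen. The members and lists were chosen with earlier results of these data known. Other control arrays, scalings, isolate handling, priors, spans, filters and array omissions were alternatives, and list counts without NCP array 2 and single NCP arrays were added after the data were seen. Figures used Python 3.11.15.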

Additional observations from a re-analysis of the deposited data

How the results depend on the processing

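The count of members higher as deposited (1) was 0 with the total embryo arrays of the NCP label series, of the same hybridization day or of the other isolate, with arrays averaged per isolate, the isolate as a random block, array weights, an adjusted p of 0.01, or arrays centred on receptor genes or on their medians. It was 3 after quantile normalization or cyclic loess and 0 to 2 when each array was left out. The count lower as deposited (6) was 0 within the hybridization day, 3 with arrays averaged per isolate, 3 after quantile normalization, 1 after cyclic loess, 10 with receptor centring, and 5 to 6 when each array was left out. The count higher after level adjustment (4) was 0 with the same label series, the same hybridization day or averaged isolates, 2 with the other isolate, the random block, array weights or an adjusted p of 0.01, and 3 to 5 when each array was left out. The count lower after level adjustment (0) was 1 with the level axis of both groups and 0 to 1 when each array was left out, the 1 being Tubb3 without NCP array 1. These counts are to be read beside those over all probe sets, which changed as well. As deposited these ran from 364 to 11284 higher and from 691 to 21956 lower over the alternatives, against 11158 and 7747. After level adjustment the share higher was 1.16% with the same label series, 0.114% with averaged isolates and 2.32% with the random block. The causes were not tested. A fit with a single same-day array has few degrees of freedom, and its part in the lost calls was not separated from the change of control array.

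Directions turned as follows. With receptor centring Nefl was at −1.02, Nefm at −1.26, Nefh at −1.60 and Prph at −1.43. After cyclic loess Ina was at 0.0069, Dcx at 0.046, Stmn2 at 0.26 and Gap43 at 0.36. Nefh was at −0.020 with the same label series and −0.032 with median centring, and ran from −0.030 (without NCP array 1) to 0.20 when each array was left out, where Nefm ran from −0.15 (without NCP array 3) to 1.03. On level-adjusted values Ina ran from −0.16 (without NCP array 1) to 0.34 when each array was left out, with −0.027 without NCP array 3, and with the level axis of both groups Ina was at −0.15, Dcx at −0.13 and Gap43 at −0.0039. Against genes of similar level Ina was at −0.0057 and Dcx at −0.049 with that axis, and Ina ran from −0.10 (without NCP array 1) to 0.44 when each array was left out.

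Over all probe sets 11158 higher and 7747 lower as deposited became 6370 and 5648 after quantile normalization, 4777 and 4506 after cyclic loess and 1345 and 21956 with receptor centring, which moved the median of all probe sets by −1.69. Quantile normalization, cyclic loess, median centring and level adjustment moved it by −0.15, −0.24, −0.12 and −0.24. Counts after level adjustment ran from 0 to 6108 higher and from 0 to 6093 lower over the alternatives, against 2903 and 2336. No paired analysis was possible because replicate numbers are in accession order and pair no samples.

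Of the level-adjusted results for single members, 193 kept direction and side of the threshold over the alternatives, 29 lost the threshold, 3 gained it and 5 turned direction. As deposited these were 195, 27, 6 and 12. On NCP arrays percentile 95 of the receptor genes was 6.65 to 6.88, against 5.31 to 5.50 on total embryo arrays, and levels below it have little signal over background.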
